A study of Mus musculus with 8 samples.

Results

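The inhibitory checkpoint genes are the receptors and ligands that restrain T cell activation, together with Tox, a transcription factor of exhausted T cells. The set held 10 genes, Pdcd1, Ctla4, Lag3, Havcr2, Tigit, Btla, Cd160, Cd274, Cd200 and Tox, chosen by symbol from the 54146 genes in the deposited transcript table. Poly-adenylated RNA was sequenced from EL4, a T cell lymphoma line of the mouse. All libraries came from cells stimulated with PMA at 50 ng/ml and ionomycin at 1 μM for 4 h. GFP + Plum cells carried only the fluorescent control proteins, T-bet + Plum cells ectopically expressed FLAG-T-bet, GFP + GATA3 cells expressed HA-GATA3, and T-bet + GATA3 cells expressed both. T-bet is the master regulator of the TH1 lineage and GATA3 that of the TH2 lineage, and the comparisons ask how each factor, alone or with the other, changed expression of these genes. There were 2 libraries per line and 8 in all. Each line is a single transduced line, so a difference between lines carries both the factor and any other difference between the lines.

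Checkpoint receptors dampen signals from the antigen receptor and from co-stimulatory receptors, many of them through cytoplasmic motifs that recruit phosphatases such as SHP-1 and SHP-2. Pdcd1 encodes PD-1, whose ligand PD-L1 is the product of Cd274. Btla and Cd160 encode receptors that share the ligand HVEM, and HVEM also binds LIGHT, a co-stimulatory cytokine of the TNF family.

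The libraries held between 8038565 and 16003519 estimated counts. Tbx21, which encodes T-bet, was between 1.78 and 3.59 CPM (counts scaled to TMM-adjusted library sizes) in the 4 libraries without FLAG-T-bet and between 129 and 160 CPM in the 4 with it. Gata3 was between 25.8 and 53.3 CPM without HA-GATA3 and between 165 and 326 CPM with it, so both genes followed the labels. Gata3 was not equal within a GATA3 state, however. T-bet + GATA3 libraries held 204 and 165 CPM of Gata3, below the 283 and 326 CPM of GFP + GATA3. T-bet + Plum libraries held 25.8 and 34.9 CPM, below the 39.8 and 53.3 CPM of GFP + Plum. Lines compared for FLAG-T-bet thus also differed in Gata3, and the part of that difference in the results below was not tested. T cell markers were present in all libraries, with a summed level of 1541 to 1714 CPM over 9 markers without FLAG-T-bet and 2213 to 2661 CPM with it, of which Trbc2 alone made up 845 to 1141 CPM and 1330 to 1794 CPM. In the averaged T-bet effect Trbc2, Cd3d, Lck and Cd2 rose among the 8 tested and none fell, while Cd3e (log2 FC 0.16), Cd3g (0.06), Thy1 (-0.31) and Trbc1 (0.91) did not pass. Trbc1 stayed at or under 1.95 CPM and Cd247, which was not tested, at or under 0.684 CPM. The 5 myeloid markers summed to 0.990 to 1.63 CPM without FLAG-T-bet and to 0.249 to 0.479 CPM with it, and Lyz2 fell among them from between 0.574 and 0.761 CPM to between 0.0665 and 0.137 CPM, with at most 12 counts in any library (log2 FC -2.58 ± 0.47 SE, edgeR FDR 0.00837). The Lyz2 call was lost with DESeq2 (FDR 0.0852), without T-bet + Plum replicate 2 (edgeR FDR 0.0502) and without GFP + GATA3 replicate 2 (0.0514). Of the 3 NK cell markers, Ncr1 was at 0 and Klrb1c had at most 1 count, whereas Klrd1 rose from between 0.186 and 0.634 CPM to between 11.9 and 34.1 CPM with FLAG-T-bet (log2 FC 6.09 ± 0.45 SE, edgeR FDR 0.000128). The part of these marker differences in the results below was not tested.

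For Cd160, the member with the largest log2 FC, the promoter sequence is shown because RNA assigned to the transcript annotated at this start differed most between the lines. Cd274 is shown beside it as the member that was lower with FLAG-T-bet. Each window runs from 250 bases before to 50 bases after a RefSeq start on GRCm38.p6, 5′ to 3′ on the strand of the gene. Cd160 lies on chromosome 3, minus strand, and its window is chr3:96814472-96814771, at the first base of the transcript Cd160-201. The capitals mark the only match to the T-box core GGTGTGA, which begins 189 bases before the start.
Cd160: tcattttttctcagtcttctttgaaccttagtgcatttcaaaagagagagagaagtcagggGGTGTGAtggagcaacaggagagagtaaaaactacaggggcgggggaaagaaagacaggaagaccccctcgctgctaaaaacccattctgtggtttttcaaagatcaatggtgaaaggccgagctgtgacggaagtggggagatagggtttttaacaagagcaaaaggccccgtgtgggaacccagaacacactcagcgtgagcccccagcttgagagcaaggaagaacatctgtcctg
Cd274 lies on chromosome 19, plus strand, and its window is chr19:29367188-29367487. The capitals mark the GATA matches AGATAA, 108 and 12 bases before the start.
Cd274: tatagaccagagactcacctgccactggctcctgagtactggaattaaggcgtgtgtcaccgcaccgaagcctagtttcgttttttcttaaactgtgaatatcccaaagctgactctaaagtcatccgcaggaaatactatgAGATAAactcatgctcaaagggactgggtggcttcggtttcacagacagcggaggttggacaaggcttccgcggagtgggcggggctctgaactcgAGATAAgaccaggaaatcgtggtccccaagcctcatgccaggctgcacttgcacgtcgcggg
Of the 10 members, 8 had a promoter in the RefSeq table, with 9 windows in all. On either strand, GGTGTGA occurred in 1 of these 9 windows and in 3.98% of all 32851 promoters of the table. The GATA letters AGATAA or TGATAA occurred in 3 of the 9 windows, those of Tigit, Cd200 and Cd274, and in 18.6% of all promoters. No match was present in the window of Btla or of Pdcd1, and the 2 motifs did not overlap each other in any window. These matches describe letters only.

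Expression of the members ranged over several orders of magnitude. On the TPM scale, which allows genes to be compared per length, Pdcd1 was the most abundant at 152 to 225 TPM over the 8 libraries. Cd274 was between 36.4 and 82.7 TPM, Tox between 25.0 and 41.5 TPM and Btla between 17.2 and 34.8 TPM. The Tox sum includes non-coding transcripts, and the coding Tox-201 alone was at 10.6 to 16.4 TPM, beside 15.0 to 30.5 TPM for the coding Btla-202. Havcr2 and Tigit were low, at 3.44 to 13.6 TPM and 4.81 to 11.2 TPM. Cd160 was between 5.79 and 8.98 TPM in the libraries without FLAG-T-bet, at a level similar to Havcr2 and Tigit, and between 107 and 156 TPM in those with it. In these 4 libraries it was above every other member except Pdcd1, and in T-bet + GATA3 replicate 1 it was above Pdcd1 as well. Lag3, the receptor for MHC class II and FGL1, reached only 0.505 TPM. Ctla4, the receptor that competes with CD28 for CD80 and CD86, had 1 count in GFP + Plum replicate 2, 1 count in GFP + GATA3 replicate 2 and none in the other 6 libraries. Cd200, the ligand of the inhibitory receptor CD200R1, had no count in any library, which allows up to 0.186 to 0.373 CPM per library at a floor of 3 counts. These limits cover counting error only.

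**Figure D1:**
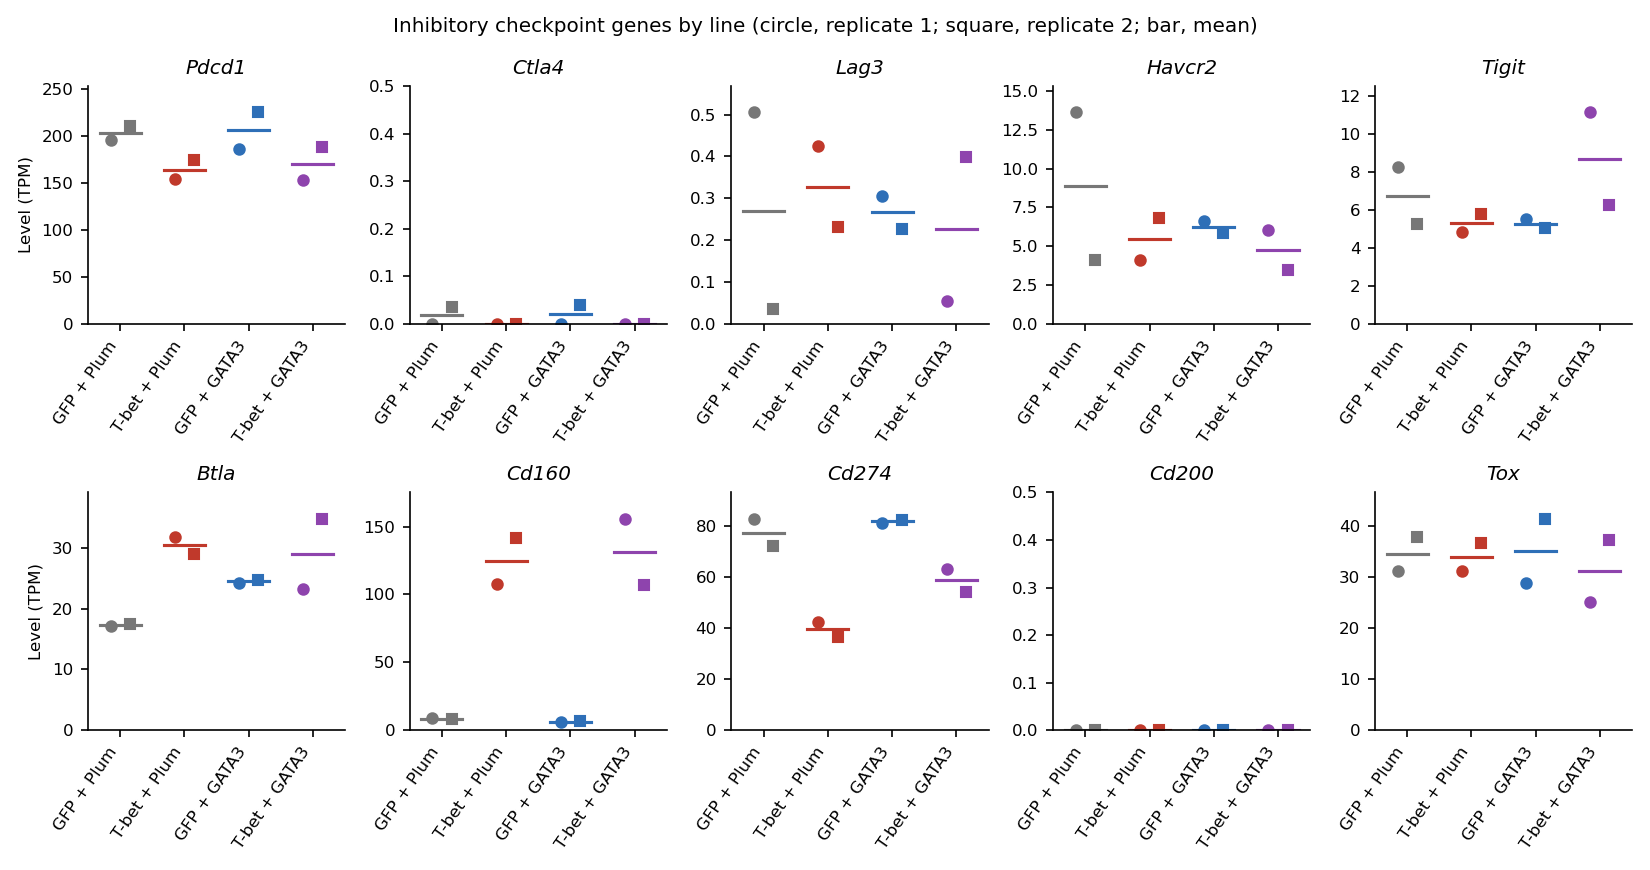
Level of each checkpoint gene in TPM (vertical axis, from 0, scaled to each gene) in the 4 lines, with a circle for replicate 1, a square for replicate 2 and a bar for their mean. Cd160 lies between 107 and 156 TPM in the libraries with FLAG-T-bet and at no more than 8.98 TPM in the others, Cd274 is lowest in T-bet + Plum, and Ctla4 and Cd200 lie at or near 0.

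Of the 10 members, 8 passed the filter on low counts and were tested, whereas Ctla4 and Cd200 were not. In T-bet + Plum versus GFP + Plum, Cd160 and Btla rose and Cd274 fell, that is 3 of the 8 tested members, against 6.2% of all 14791 tested genes at an FDR of at most 0.05. With HA-GATA3 present, in T-bet + GATA3 versus GFP + GATA3, only Cd160 rose among the 8, against 5.77% of all genes. In T-bet + GATA3 versus GFP + Plum, Cd160 and Btla rose, against 4.87% of all genes. With the T-bet effect averaged over both GATA3 states, the calls were Cd160 and Btla up and Cd274 down, against 15.2% of all genes. None of the 8 passed in GFP + GATA3 versus GFP + Plum (0.0203% of all genes called), in the second GATA3 comparison, that of T-bet + GATA3 with T-bet + Plum (0.0338%), in the averaged GATA3 effect (0.0608%) or in the interaction of the 2 factors (0%). In these 4 comparisons the edgeR fit gave 1, 1, 1 and 2 members at an unadjusted p under 0.05, against 3.7%, 3.78%, 4.96% and 2.58% of all tested genes. DESeq2 called 0, 1, 0 and 0 members, against 0.333%, 0.262%, 0.594% and 0.0913% of the genes to which it gave an adjusted p. With so few genes called anywhere in them, the absence of a call among the members does not set them apart. The median log2 FC of the 8 members in the averaged T-bet effect was -0.003, beside 0.02 over all tested genes. These comparisons share libraries and are not independent of each other. Only Cd160 also passed a log2 FC of 1.5.

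**Figure D2:**
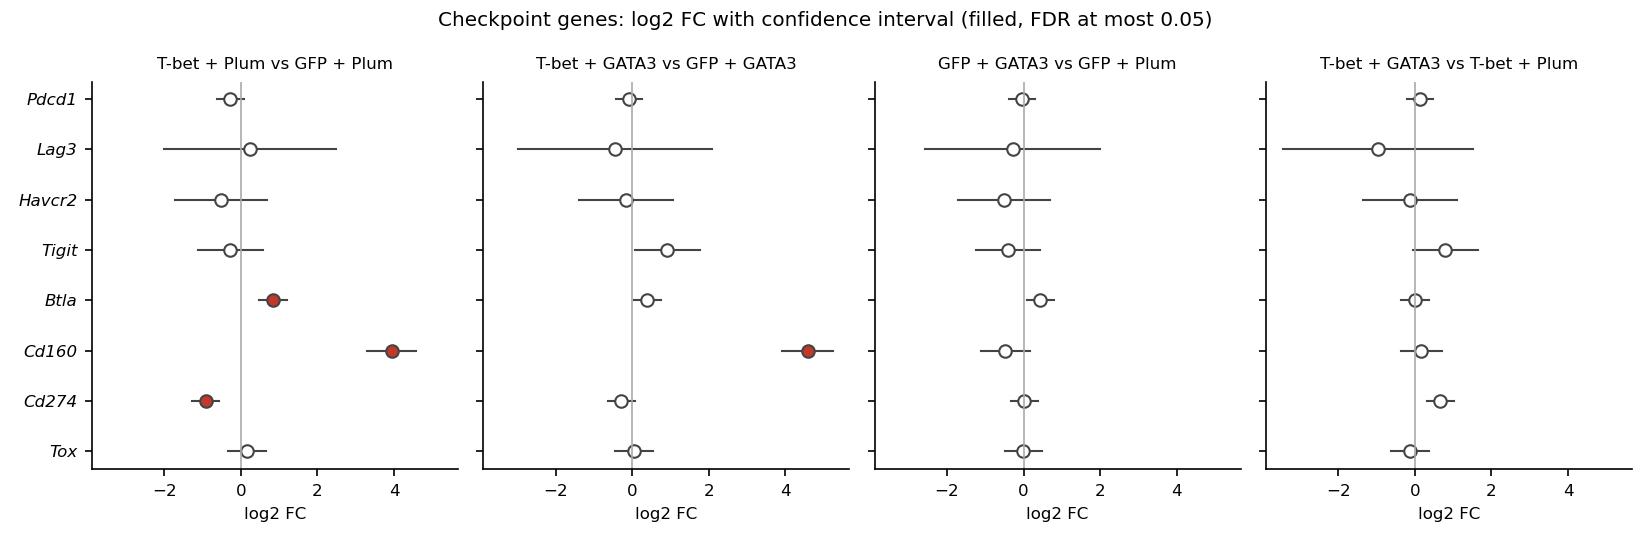
Log2 FC (horizontal axis) of the 8 tested checkpoint genes with its 95% interval in 4 comparisons, filled where the FDR was at most 0.05. Cd160 stands at 3.94 and 4.58 in the 2 comparisons of lines with and without FLAG-T-bet, Btla and Cd274 are filled in the first of them, and no gene is filled in the 2 comparisons of lines with and without HA-GATA3.

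Cd160 encodes an immunoglobulin-type receptor attached to the membrane by a lipid anchor, known from NK cells and cytotoxic T cells. Cd160 was at 8.54 and 8.44 CPM in GFP + Plum cells, 112 and 148 CPM in T-bet + Plum cells, 5.46 and 6.66 CPM in GFP + GATA3, and 182 and 111 CPM in T-bet + GATA3. The 4 libraries with FLAG-T-bet lay far above the 4 without it, and the line means with FLAG-T-bet, 130 ± 25.7 and 146 ± 50.2 CPM (SD, n = 2), lay within each other's spread. Cd160 was 15.3-fold higher in T-bet + Plum than in GFP + Plum (log2 FC 3.94 ± 0.27 SE, edgeR FDR 0.000213) and 23.9-fold higher in T-bet + GATA3 than in GFP + GATA3 (log2 FC 4.58 ± 0.29 SE, FDR 0.000129). The difference between these 2 changes was 0.64 on the log2 scale, with a 95% interval of -0.20 to 1.49 that includes 0. Between the 2 lines with FLAG-T-bet the log2 FC was 0.17 (95% interval -0.37 to 0.71). In bulk RNA, more cells with the transcript and more RNA per cell cannot be told apart.

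Most of the Cd160 signal was assigned to Cd160-201. Cd160-201, which begins at chr3:96814521, held between 95.0% and 98.8% of Cd160 TPM in the 8 libraries, and Cd160-203, which begins at 96829351, held the rest. Cd160-202 had no count. The window printed above therefore lies at the annotated start of the transcript to which kallisto assigned most Cd160 RNA in every line. In estimated counts, Cd160-203 held 11.2 beside 93.8 for Cd160-201 in GFP + GATA3 replicate 2. Cd160-201 and Cd160-203 also differ at their 3′ ends (96800155 and 96798763), so use of the start itself was not measured. The share of Cd160-201 was 97.0% ± 1.67 without FLAG-T-bet and 96.3% ± 0.249 with it (SD, n = 4 each, adjusted p = 0.48, two-sided exact permutation test). Pdzk1 overlaps Cd160 on the opposite strand, and had between 0.191 and 1.62 CPM, below Cd160 in every library.

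Btla encodes a receptor with inhibitory tyrosine motifs that binds the same ligand. Btla was at 45.0 and 50.2 CPM in GFP + Plum cells, 88.7 and 81.9 CPM in T-bet + Plum cells, 65.0 and 64.2 CPM in GFP + GATA3, and 72.6 and 97.4 CPM in T-bet + GATA3. All 4 libraries with FLAG-T-bet were above all 4 without it on the CPM scale, but T-bet + GATA3 replicate 1 lay below both GFP + GATA3 libraries in TPM, at 23.3 TPM against 24.2 and 24.8 TPM. Btla was 1.79-fold higher in T-bet + Plum than in GFP + Plum (log2 FC 0.84 ± 0.16 SE, edgeR FDR 0.0200), and this call was lost when any one of the 4 libraries of the 2 lines was left out, with an FDR between 0.054 and 0.122. With HA-GATA3 present, T-bet + GATA3 versus GFP + GATA3, the log2 FC was 0.40 (95% interval 0.04 to 0.76, FDR 0.208). Against GFP + Plum, Btla rose in T-bet + GATA3 as well (log2 FC 0.84 ± 0.16 SE, FDR 0.0220), a call lost with each of 6 libraries left out, at an FDR between 0.0503 and 0.0953, and in a fit of those 2 lines alone, at an FDR of 0.109. Averaged over both GATA3 states, the log2 FC was 0.62 ± 0.11 SE (FDR 0.00809) and stayed between 0.47 and 0.70 with each library left out. GFP + GATA3 lay between GFP + Plum and the 2 lines with FLAG-T-bet, at 64.6 ± 0.536 CPM against 47.6 ± 3.71 CPM (SD, n = 2), and that difference did not pass (log2 FC 0.44, FDR 1, unadjusted p = 0.0229 in the edgeR fit). Btla, Cd160 and Cd274 were the 3 of 8 tested members whose CPM did not overlap between the libraries with and without FLAG-T-bet, and 22.7% of all tested genes met the same condition.

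The genes for HVEM, the ligand of these 2 receptors, and for LIGHT, which also binds HVEM, differed in the same comparison. Tnfrsf14, which encodes HVEM, had only 9 to 16 counts in the libraries without FLAG-T-bet and 29 to 66 in those with it, or 0.571 to 1.15 CPM against 3.06 to 4.51 CPM. Tnfrsf14 rose in T-bet + Plum (log2 FC 2.41 ± 0.42 SE, edgeR FDR 0.0150) and in T-bet + GATA3 (log2 FC 1.89 ± 0.43 SE, FDR 0.0444) against the matching lines without FLAG-T-bet. Tnfsf14, which encodes LIGHT, was between 9.90 and 29.9 CPM without FLAG-T-bet and between 62.9 and 85.5 CPM with it. Its log2 FC was 1.99 ± 0.43 SE (FDR 0.0337) and 2.08 ± 0.44 SE (FDR 0.0300) in the same 2 comparisons. Thus on the CPM scale the transcripts of all 4 genes were higher in the libraries with FLAG-T-bet, HVEM at the lowest level of the 4. Btla overlapped in TPM, as given above, and did not pass in T-bet + GATA3 versus GFP + GATA3. Surface protein and binding were not measured in these data.

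**Figure D3:**
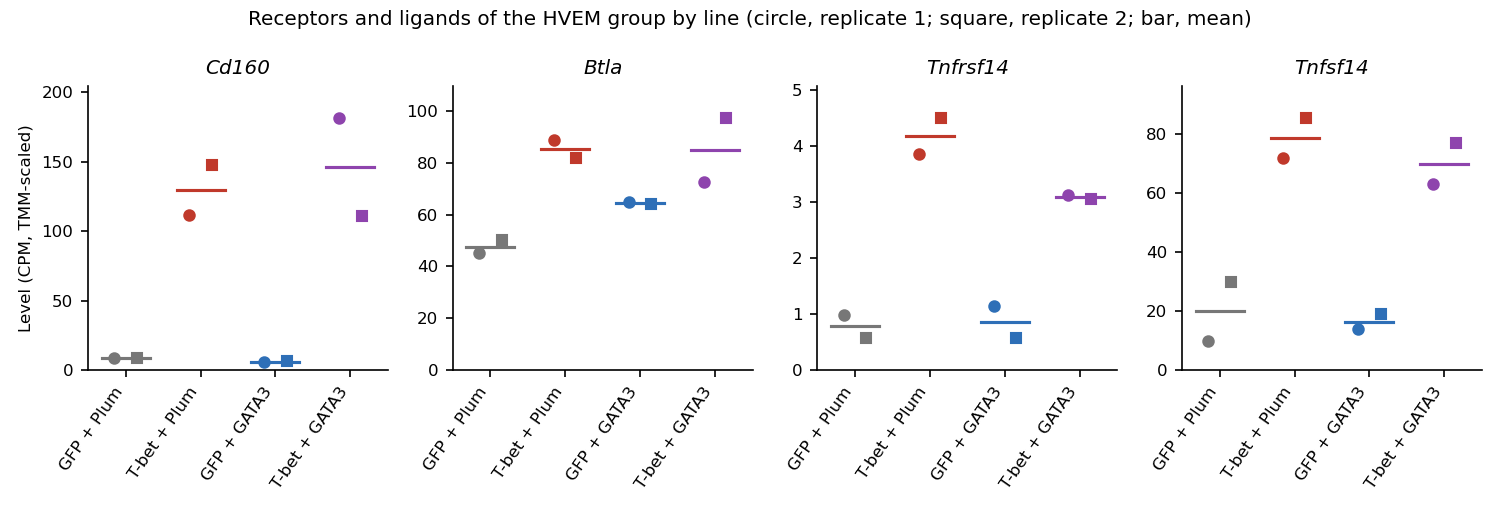
Level in CPM (vertical axis, from 0, scaled to each gene) of the receptors Cd160 and Btla, of Tnfrsf14 (HVEM) and of Tnfsf14 (LIGHT) in the 4 lines, with a circle for replicate 1, a square for replicate 2 and a bar for their mean. In each panel the 4 libraries with FLAG-T-bet lie above the 4 without it, and Tnfrsf14 does not exceed 4.51 CPM.

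Pdcd1, the gene for PD-1, was the most abundant member and passed no test. Its level was 315 and 381 CPM in GFP + Plum cells, 269 and 307 CPM in T-bet + Plum cells, 306 and 367 CPM in GFP + GATA3, and 302 and 329 CPM in T-bet + GATA3. T-bet + Plum lay below GFP + Plum without overlap, and every other pair of lines overlapped. In every line replicate 2 was above replicate 1. At the same replicate number, each line with FLAG-T-bet was below its matching line without it. Whether the numbers pair the libraries is not given. The averaged T-bet log2 FC was -0.18, with a 95% interval of -0.42 to 0.06 (edgeR FDR 0.306), and the averaged GATA3 log2 FC was 0.04 (95% interval -0.20 to 0.28).

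Cd274 encodes PD-L1, the ligand of PD-1. Cd274 was at 254 and 249 CPM in GFP + Plum cells, 142 and 123 CPM in T-bet + Plum cells, 254 and 257 CPM in GFP + GATA3, and 240 and 181 CPM in T-bet + GATA3. The 4 libraries without FLAG-T-bet lay close together, T-bet + Plum was the lowest line and T-bet + GATA3 lay between. Cd274 was 1.90-fold lower in T-bet + Plum than in GFP + Plum (log2 FC -0.92 ± 0.15 SE, edgeR FDR 0.0123). Without T-bet + Plum replicate 1 or replicate 2 the log2 FC was -1.03 (FDR 0.0504) and -0.82 (FDR 0.12), each then resting on 1 library of that line, assumed to vary like the others. Against GFP + GATA3, the log2 FC of T-bet + GATA3 was -0.28 (95% interval -0.63 to 0.07, FDR 0.361). Averaged over both states it was -0.60 ± 0.11 SE (FDR 0.00785).

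The 2 T-bet changes of Cd274 were also set against each other. Their difference was 0.64 on the log2 scale (95% interval 0.15 to 1.14, unadjusted p = 0.0165 in the edgeR fit), which did not pass over all genes (FDR 1). Between the 2 lines with FLAG-T-bet, Cd274 was 1.59-fold higher in T-bet + GATA3 (log2 FC 0.67 ± 0.15 SE, FDR 0.689). This comparison passed with DESeq2 (log2 FC 0.67, FDR 0.0484) and without the filter on low counts (log2 FC 0.69, FDR 0.00829), and in none of the other 15 alternatives. Over all alternatives the FDR ran from 0.00829 to 1. Between GFP + GATA3 and GFP + Plum, the log2 FC of Cd274 was 0.02 (95% interval -0.32 to 0.37).

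Pdcd1lg2 encodes PD-L2, the other ligand of PD-1, and lies 22.8 kb from Cd274 with no annotated gene between. Pdcd1lg2 was between 4.88 and 27.6 CPM, with GFP + Plum replicate 2 the lowest library by far, and did not pass in the averaged T-bet effect (log2 FC 0.04 ± 0.35 SE, edgeR FDR 0.961). By contrast, the gene whose log2 CPM followed Cd274 most closely over the 8 libraries was Ric1 (Pearson r = 0.986, a description over 11064 protein-coding genes). Ric1 lies 134 kb from Cd274 on chromosome 19, with 1 annotated gene between. Ric1 was at 207 and 218 CPM in GFP + Plum cells, 136 and 128 CPM in T-bet + Plum cells, 205 and 224 CPM in GFP + GATA3, and 195 and 163 CPM in T-bet + GATA3. Both genes were lowest in T-bet + Plum and intermediate in T-bet + GATA3. AC119228.1 overlaps Cd274 on the opposite strand, and whether the counting used strand is not given in the sources used here.

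Havcr2, the gene for TIM-3, differed widely between the libraries of 3 of the 4 lines. Its level was 29.8 and 9.83 CPM in GFP + Plum cells, 9.96 and 17.2 CPM in T-bet + Plum cells, 15.0 and 12.9 CPM in GFP + GATA3, and 17.0 and 8.45 CPM in T-bet + GATA3. The averaged T-bet log2 FC was -0.34 (95% interval -1.20 to 0.52, edgeR FDR 0.598), and it was 0.16 without GFP + Plum replicate 1.

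The 2 coding transcripts of Havcr2 differ, apart from a few bases at their ends, by a stretch inside the exon that encodes the immunoglobulin variable domain. The exon spans chr11:46456256-46456594 on the plus strand, and Havcr2-202 skips 147 bases of it, chr11:46456285-46456431, which is 49 codons with no base left over. The stretch is printed in full as the sequence that separates the 2 transcripts, from the Gencode M21 transcript.
Havcr2-201 only: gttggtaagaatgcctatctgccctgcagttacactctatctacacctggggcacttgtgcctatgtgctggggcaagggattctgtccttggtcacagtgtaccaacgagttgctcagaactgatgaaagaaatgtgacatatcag
Havcr2-201, which holds the stretch, made up 35.9% and 8.40% of Havcr2 TPM in GFP + Plum, 50.5% and 100.0% in T-bet + Plum, 51.4% and 32.5% in GFP + GATA3, and 88.1% and 75.5% in T-bet + GATA3. The lowest library with FLAG-T-bet and the highest without it overlapped narrowly, at 50.5% and 51.4%. The mean share was 32.1% ± 17.8 without FLAG-T-bet and 78.5% ± 21.2 with it (SD, n = 4 each), a difference of 46.5 percentage points that did not pass (exact permutation p = 0.0571, adjusted p = 0.1 over 7 transcripts of 4 genes, two-sided, smallest p possible 0.0286). These shares rest on 80 to 482 estimated counts of Havcr2 per library, which kallisto divided between both transcripts, so their precision is limited and no binomial interval is given for estimated counts. Each n of 4 counts libraries from 2 lines, which the permutation test treated as exchangeable.

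**Figure D4:**
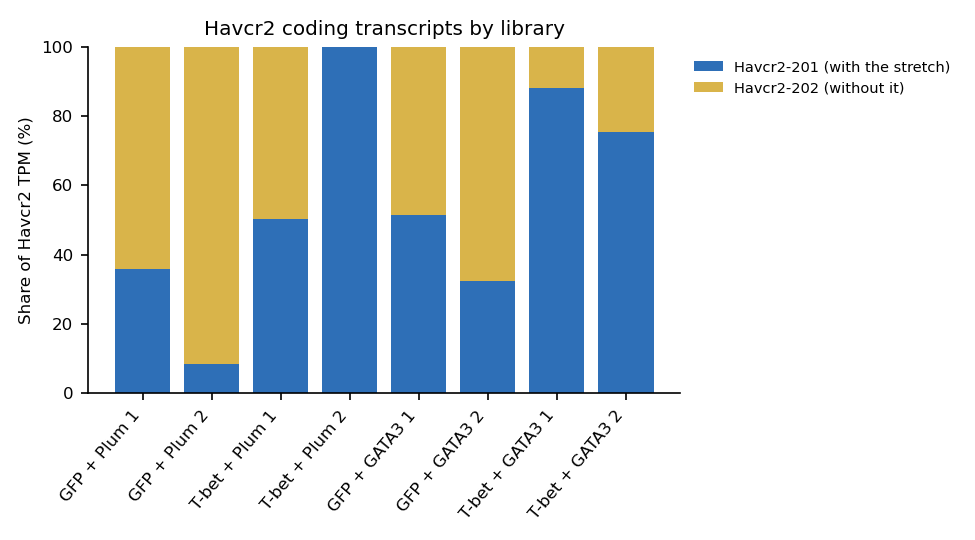
Share of Havcr2 TPM (vertical axis, percent) held by Havcr2-201, with the 147-base stretch, and Havcr2-202, without it, in each of the 8 libraries. The share of Havcr2-201 is 8.40% to 51.4% in the libraries without FLAG-T-bet and 50.5% to 100.0% in those with it.

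Tigit encodes a receptor for PVR, also called CD155. Tigit was at 6.06 and 4.31 CPM in GFP + Plum cells, 3.86 and 4.65 CPM in T-bet + Plum cells, 4.12 and 3.74 CPM in GFP + GATA3, and 10.1 and 4.99 CPM in T-bet + GATA3. T-bet + GATA3 replicate 1 was the highest library, and the other 7 lay between 3.74 and 6.06 CPM. These levels rest on 31 to 98 counts per library. Tigit had a log2 FC in T-bet + GATA3 versus GFP + GATA3 of 0.92 (95% interval 0.08 to 1.76, edgeR FDR 0.214), which was 0.33 without T-bet + GATA3 replicate 1. Lag3 had 14 and 1 counts in GFP + Plum, 6 and 6 in T-bet + Plum, 4 and 6 in GFP + GATA3, and 1 and 6 in T-bet + GATA3. Differences in Lag3 were not detectable at this depth, and its edgeR 95% interval in the averaged T-bet effect spanned -1.78 to 1.56.

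Tox encodes an HMG-box transcription factor that is needed for the exhausted state of T cells. Tox was at 54.3 and 71.2 CPM in GFP + Plum cells, 63.6 and 76.2 CPM in T-bet + Plum cells, 52.5 and 72.1 CPM in GFP + GATA3, and 56.4 and 72.0 CPM in T-bet + GATA3. The 2 libraries of each line differed by more than the line means did, with replicate 2 above replicate 1 in every line. The averaged T-bet log2 FC was 0.10 (95% interval -0.25 to 0.45, edgeR FDR 0.71). Most Tox TPM belonged to Tox-202, a short non-coding transcript from the 3′ part of the gene, at 58.0% ± 1.90 without FLAG-T-bet and 54.0% ± 1.92 with it. The coding Tox-201 held 39.0% ± 1.36 and 42.9% ± 1.98 (SD, n = 4 each), and neither difference passed (adjusted p = 0.1, exact permutation test). In estimated counts the order was reversed in every library, at 408 to 886 for Tox-201 and 89.0 to 246 for Tox-202. TPM divides by length, which is 3961 bases for Tox-201 and 773 for Tox-202.

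Genes related to the members were examined as lists of other inhibitory receptors, ligands and binding partners, activating counterparts, signalling partners and exhaustion transcription factors, all in the averaged T-bet effect with the edgeR FDR. Over all 14791 tested genes 8.55% rose and 6.61% fell in this comparison. The lists were chosen with earlier results of these data known, so their counts and medians beside those of all genes are a description only. Among other inhibitory receptors of T and NK cells, 5 of 11 tested (14 listed) rose, none fell and 6 did not pass, against 8.55% up and 6.61% down of all genes, and the median log2 FC was 0.75 beside 0.02 over all tested genes. Klrc1, which encodes the NK receptor NKG2A and pairs with the product of Klrd1, went from 0.317 to 1.15 CPM without FLAG-T-bet to 52.9 to 94.3 CPM with it (log2 FC 6.83 ± 0.25 SE, FDR 4.53e-06). Cd5, a dampener of antigen receptor signalling, went from 80.8 to 132 CPM to 196 to 273 CPM (log2 FC 1.12 ± 0.09 SE, FDR 0.000133). Klrg1 (log2 FC 1.92), Lilrb4a (1.20) and Cd6 (1.67) also rose, Klrg1 and Cd6 at no more than 4.97 and 6.91 CPM with overlapping groups. The call of Cd6 was lost with each of 6 libraries left out, at an FDR of at most 0.119.

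Among ligands and binding partners of the members, 2 of 8 tested (14 listed) rose, 2 fell and 4 did not pass, against 8.55% up and 6.61% down over all genes, with a median log2 FC of -0.29 beside 0.02. Pvr, the ligand of TIGIT, rose from 9.64 to 14.7 CPM to 24.3 to 39.1 CPM (log2 FC 1.47 ± 0.20 SE, edgeR FDR 0.00221), and Tnfrsf14 is described above. Cd200r1, the receptor for CD200, fell from 12.9 to 21.3 CPM to 6.05 to 8.68 CPM (log2 FC -1.21 ± 0.17 SE, FDR 0.00243), while its ligand gene Cd200 had no counts. Hmgb1, which encodes a chromatin protein that binds TIM-3 when released, fell (log2 FC -0.62 ± 0.14 SE, FDR 0.0225), a call lost with each of 6 libraries left out, at an FDR of at most 0.096. Cd80 had at most 17 counts, and Cd86, Lgals3, Nectin3, Cd276 and Vtcn1 at most 2 counts in any library.

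Of the activating counterparts, 2 of 5 tested (7 listed) rose, none fell and 3 did not pass, where 8.55% of all genes rose and 6.61% fell, and the median log2 FC was 1.34 beside 0.02 over all genes. They were Tnfsf14 and Cd226, the co-stimulatory receptor that competes with TIGIT for PVR. Cd226 had 0 to 6 counts without FLAG-T-bet and 12 to 43 counts with it (edgeR FDR 0.00578). Cd28, 114 kb from Ctla4, was expressed at 96.4 to 143 CPM and did not pass (log2 FC 0.17 ± 0.10 SE, FDR 0.329), whereas Icos, 62.1 kb from Ctla4, had at most 8 counts. Cd4, 16.1 kb from Lag3, was between 0.571 and 4.85 CPM and did not pass (FDR 0.0821). Havcr1 had at most 8 counts and Timd4 none.

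Of the signalling and trafficking partners, 3 of 14 tested (15 listed) rose, 1 fell and 10 did not pass, beside 8.55% up and 6.61% down among all genes, and the median log2 FC was 0.02, as over all genes. Ptpn11, the gene for SHP-2, rose from 153 to 213 CPM to 320 to 428 CPM (log2 FC 1.10 ± 0.14 SE, edgeR FDR 0.00142), whereas Ptpn6, the gene for SHP-1, did not pass (log2 FC -0.19 ± 0.12 SE, FDR 0.338). The adaptors Dok2 (log2 FC 0.87) and Dok1 (log2 FC 0.57) rose, although the Dok1 call was lost with each of 7 libraries left out, at an FDR of at most 0.103, and the Dok2 call without GFP + GATA3 replicate 2, at an FDR of 0.0521. Pag1, which anchors the kinase CSK at the membrane, fell (log2 FC -0.70 ± 0.11 SE, FDR 0.00468).

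Among the exhaustion transcription factors, 4 of 15 tested (17 listed) rose, 4 fell and 7 did not pass, against all-gene shares of 8.55% and 6.61%, with a median log2 FC of 0.14 beside 0.02. Nr4a3, an orphan nuclear receptor induced by antigen receptor signals, rose from 38.7 to 99.3 CPM to 375 to 528 CPM (log2 FC 2.79 ± 0.12 SE, edgeR FDR 8.7e-06), and Bhlhe40 rose from 112 to 148 CPM to 287 to 335 CPM (log2 FC 1.26 ± 0.08 SE, FDR 6.44e-05). Id2 (log2 FC -1.36 ± 0.20 SE, FDR 0.00362) and Id3 (log2 FC -0.85 ± 0.14 SE, FDR 0.00587), inhibitors of E proteins, fell. Tox2, the relative of Tox, had 23 to 54 counts without FLAG-T-bet and 0 to 8 counts with it (FDR 0.00585). Tox itself, Tox4, Tcf7, Batf and Irf4 did not pass.

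**Figure D5:**
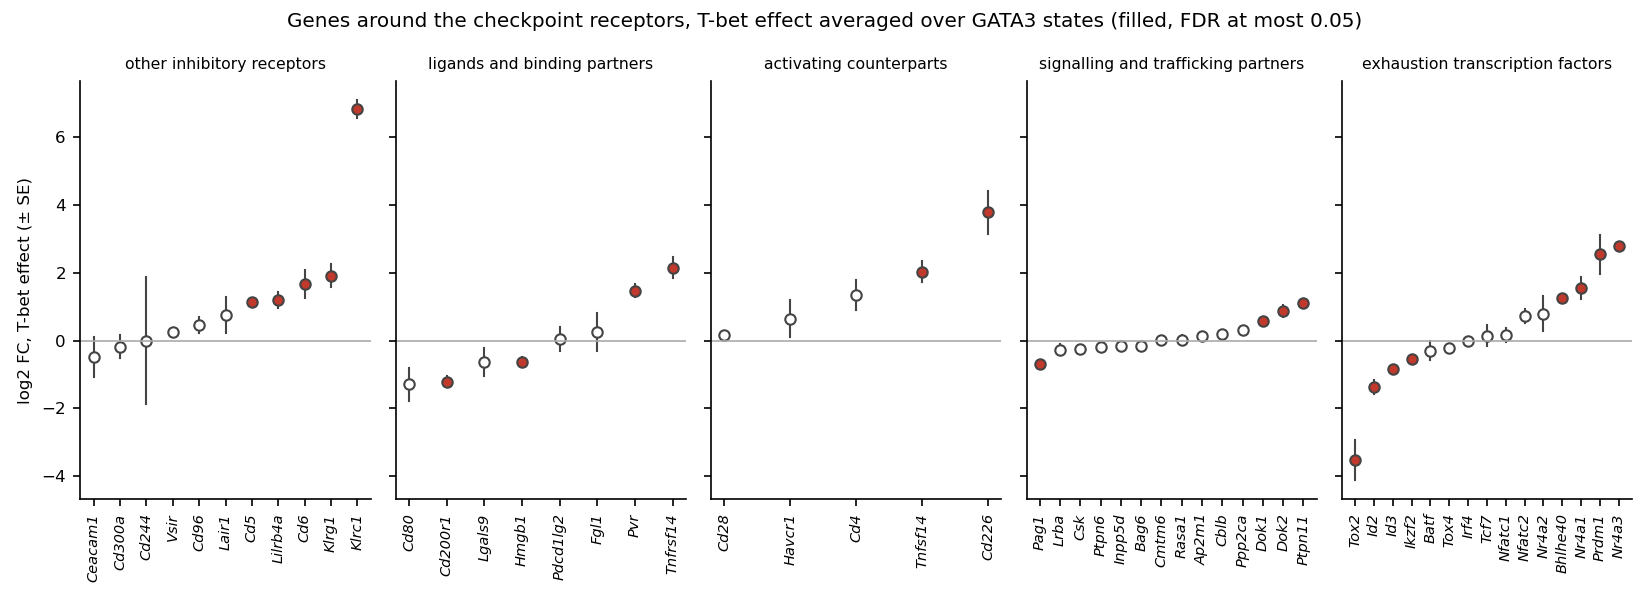
Averaged T-bet log2 FC (vertical axis, with bars of 1 SE) for each tested gene of the 5 lists, filled where the FDR was at most 0.05. In the first list the 5 filled genes lie above 0, and in the transcription factors 4 filled genes lie above and 4 below. The long bar of Cd244 (log2 FC -0.0018, SE 1.88) comes from a log2 FC near 0, where the SE as computed can be unreliable. In the averaged GATA3 effect the SE of Cd244 was 0.41.

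The genes whose log2 CPM followed a member most closely over the 8 libraries are given as a description, since the points share libraries and depth. For Cd160 they were Slc6a12, Il4ra and Fgr, with Pearson r of 0.996, 0.995 and 0.995. For Btla they were Nme3 (0.984), Rbfox1 and Fam188a, and for Cd274 they were Cnnm1 (0.978) and Smo (0.967) after Ric1. For Pdcd1 they were Slmap (0.980), Spen and Bend3, and for Tox Rbm42 (0.976), Actn3 and Arhgap31. For Havcr2 they were Zfp142 (0.943), Rai1 and Tysnd1, and for Tigit Ccdc174 (0.943), Cyb5d2 and Mgat2.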

How the data were processed

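RNA-seq values of 4 lines of stimulated EL4 cells, with 2 libraries per line, were analysed. Reads were trimmed with Trim Galore!, checked with FastQC and quantified with kallisto by the authors, who deposited estimated counts (not normalized) and TPM (scaled to the same total over all transcripts of each library) for 136535 transcripts. The tool versions are not given in the sources used here. The methods name Gencode M20 and the deposited values M18, on build mm10.

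Transcript values were summed per gene. Counts were rounded, and tested with edgeR 4.0.16 in R 4.3.3 (filterByExpr, TMM, quasi-likelihood test, 1 fit of 8 libraries and 4 lines, Benjamini-Hochberg adjustment over 14791 genes). Calls required an FDR of at most 0.05. SE was obtained as |log2 FC| over the root of the F statistic, and 95% intervals from the moderated degrees of freedom. An SE obtained this way can be unreliable where the log2 FC is near 0. Shares of transcripts of genes with at least 50 estimated counts in every library, and a mean share of at least 10%, were compared with a two-sided exact permutation test over 8 libraries. That test treated the 8 libraries as exchangeable and took no account of line or GATA3 state. Its n of 4 counts libraries, not independent lines. Motifs were searched on both strands of RefSeq promoters. Positions are from Gencode M21 on GRCm38.

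The methods define replicates as harvests of a line on different days, so p-values measure the spread between harvests. Replicates differed by more than counting noise (chi-square per degree of freedom 10.2 to 30.9). The legend of the study gives more replicates than the 2 per line analysed here. The members and lists were chosen with earlier results of these data known. Named genes were the members, up to 5 called genes per list by smallest FDR, listed neighbours of members, and the 3 genes most correlated with each member of at least 1 TPM. Exceptions named after their values were seen are genes given as not passing and genes under the filter. Alternatives were other scalings, filters, DESeq2 1.42.0, length offsets, protein-coding genes, the replicate block, fewer libraries and a log2 FC threshold of 1.5. The listed symbols Cd244a and Nectin2 were not matched. One further marker list is not reported here. The scripts were tested on simulated data. Python 3.11.15, scipy 1.17.1 and matplotlib 3.10.9 were used.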

Additional observations from a re-analysis of the deposited data

How the results depend on the processing

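Cd160 was called in its 4 comparisons of lines with and without FLAG-T-bet under every alternative that was run, and Cd160, Btla and Cd274 in the averaged T-bet effect under all 16 at the FDR threshold alone. In T-bet + Plum versus GFP + Plum, 3 members were called, and 1 to 3 with a library left out. Comparing T-bet + GATA3 with GFP + Plum, 2 were called, 1 to 2 with a library left out, and 1 (Cd160) when the fit held no other libraries. With a log2 FC threshold of 1.5 as well, 1 member was called in each of these and in the averaged T-bet effect. Comparing T-bet + GATA3 with T-bet + Plum, 0 members were called in the edgeR fit, but 1 (Cd274) with DESeq2 and 1 without the filter on low counts, where 37 and 228 genes were called in all against 5, and the cause was not tested. With a library left out, the averaged T-bet log2 FC of Havcr2 ran from -0.64 to 0.16 and that of Tox from -0.028 to 0.23, neither passing. The share of Btla-202 with minus without FLAG-T-bet was -1.15 percentage points in TPM and 0.0898 in estimated counts. Lyz2 lost its call with DESeq2 (FDR 0.0852). Deviations of libraries with the same replicate number correlated between -0.05 and 0.30 over pairs of lines. The sources used here do not say whether the numbers pair the libraries, and the main fit did not pair them. Pdcd1 and Tox were higher in replicate 2 than in replicate 1 in every line. A shift shared by replicate number was not tested. With the replicate block, the calls among the members did not change (3, 1, 0, 0, 2, 3, 0 and 0 in the 8 comparisons), nor did the 0 transcripts called. All genes called went from 917 to 1440 for T-bet + Plum against GFP + Plum and from 854 to 1379 for T-bet + GATA3 against GFP + GATA3. In the averaged T-bet effect they went from 2242 to 3063. Precision is limited by 2 libraries per line and, for Lag3, Tnfrsf14, Cd226 and Tox2, by low counts.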
